A study of Papio hamadryas with 11 samples.

Results

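The nuclear genes for the subunits of respiratory complexes III, IV and V, together with cytochrome c, were described in near-term fetal baboon liver. The list held 36 genes, chosen by name, with earlier results of these data known: 9 of complex III, 11 of complex IV, 15 of complex V and the cytochrome c gene CYCS. Of these, 33 were annotated to a probe, under the present symbol or an older one such as ATP5A1 or UCRC, and 23 had a probe detected on at least 5 arrays (detection p under 0.05). The probe with the highest mean stood for a gene. These 23 measured genes are a small share of the 10173 features tested.

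The livers came from 5 fetuses of obese mothers (arrays MO1 to MO5) and 6 fetuses of control mothers (CON1 to CON6), all Papio hamadryas at 165 days, or 0.9 of gestation. MO1 to MO3 were female and MO4 and MO5 male. CON1 to CON3 were female and CON4 to CON6 male. The labels name no genetic change, agent or diet, and they do not say how the mothers became obese. RNA of the whole liver was hybridised to human Illumina BeadChips, 1 array per fetus. Liver at this stage holds hepatocytes, blood-forming, vascular and connective tissue cells. In such bulk RNA, fewer cells of a type and less RNA per cell cannot be told apart.

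Complexes III and IV pass electrons from ubiquinol to oxygen and pump protons across the inner mitochondrial membrane, with cytochrome c as the mobile carrier between them. Complex V, the ATP synthase, lets the protons flow back through a membrane rotor and uses that flow to make ATP in its catalytic head. A few core subunits are encoded in mitochondrial DNA. The nuclear genes described here give other subunits, though not every one, and many of these are small proteins that stabilise or regulate the complexes. Liver draws on this machinery for gluconeogenesis and urea synthesis around birth.

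By their names the arrays came from a pair of slides. Slide 2 held all 5 maternal obese arrays with CON5 and CON6, and slide 1 held CON1 to CON4. Among females, slide and maternal obesity cannot be told apart, and a fit with slide as a covariate compares the maternal obese arrays with CON5 and CON6, both male. Between 10131 (MO4) and 13065 (CON4) of 48803 probes were detected per array, and median intensities were 69.7 to 80.3 on slide 2 and 62 to 65.6 on slide 1. The hepatocyte markers ALB, TTR and SERPINA1 were on every array no lower than the 13.95 (log2) of SERPINA1 in MO2, and 10 of 12 listed hepatocyte markers were measured, each on all 11 arrays. Nothing in the labels says whether mothers were shared between fetuses. The tests treated each fetus as independent, so the p-values do not account for a shared mother.

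All 23 measured genes were detected on all 11 arrays, as were 75.4% of the features. By complex, 4 of 9 genes of complex III were measured (UQCRC1, UQCRH, UQCR10 and CYC1), 7 of 11 of complex IV (COX4I1, COX5A, COX6A1, COX6B1, COX6C, COX7B and COX7C), 11 of 15 of complex V, and CYCS. UQCRFS1, COX7A2L and ATP5F1E were annotated to no probe. Another 8 genes, UQCRC2, UQCRB, UQCRQ, UQCR11, COX5B, COX7A2, COX8A and ATP5MC3, had a probe that was detected on no array. The probes are human, and whether the mismatch to baboon RNA bears on these 8 was not tested. Detection of the remaining 2 genes went with the slide. ATP5F1C, the rotor subunit at the axis of the catalytic head, was detected on 0 of 5 maternal obese and 4 of 6 control arrays, and those 4 were the whole of slide 1. ATP5ME, a small membrane subunit, was detected by 1 of its 3 probes on 0 of 5 maternal obese and 3 of 6 control arrays, again on slide 1 only (CON1, CON2 and CON3).

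Maternal obese livers were set against control livers to ask whether maternal obesity went with a different supply of these transcripts. None of the 23 genes passed the test (limma, Benjamini-Hochberg adjustment over all features, threshold 0.05), against a background of 0% of 10173 features. The smallest adjusted p was 0.337 among the 23 and 0.201 over all features. By direction, 18 of the 23 differences lay below 0 (78.3%), against a background of 41.3% of features. Their median was -0.13 on the log2 scale, against 0.05 over all features. It was -0.08 for complex III, -0.20 for complex IV and -0.12 for complex V. With median scaling in place of quantile normalization 23 of 23 lay below 0, against a background of 68.3% of features, whose median was then -0.13, and the median of the 23 genes was -0.34. Maternal obese and control arrays overlapped for each of the 23 genes. Over all features the maternal obese arrays lay wholly above the controls for 1.19% and wholly below them for 0.236%.

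At an unadjusted p under 0.05, 4 of the 23 genes were lower in maternal obese livers (17.4%) and none higher, against a background of 3.91% lower and 9% higher. They were COX6B1, UQCRH, CYCS and COX7B. Without MO2 that number became 1 of 23 (COX6B1), 13 of 23 differences lay below 0, and the median was -0.04. Of all features 278 were then lower at that threshold, 42.2% lay below 0 and the median was 0.05. With slide as a covariate 0 of 23 genes passed, against a background of 0.00983% of features. At an unadjusted p under 0.05, 1 of 23 was lower in that fit (UQCR10) and 1 higher (COX6C). None of COX6B1, UQCRH, CYCS and COX7B was under that threshold. Of the 10173 features 787 were under it, 306 of them lower. With the slide covariate 18 of 23 again lay below 0, against a background of 49.8% of features, and the median was -0.18 against 0.00 over all features. In the plot of differences, UQCRH and COX7C turned above 0 in that fit, while UQCR10 and CYCS moved further below it.

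**Figure D1:**
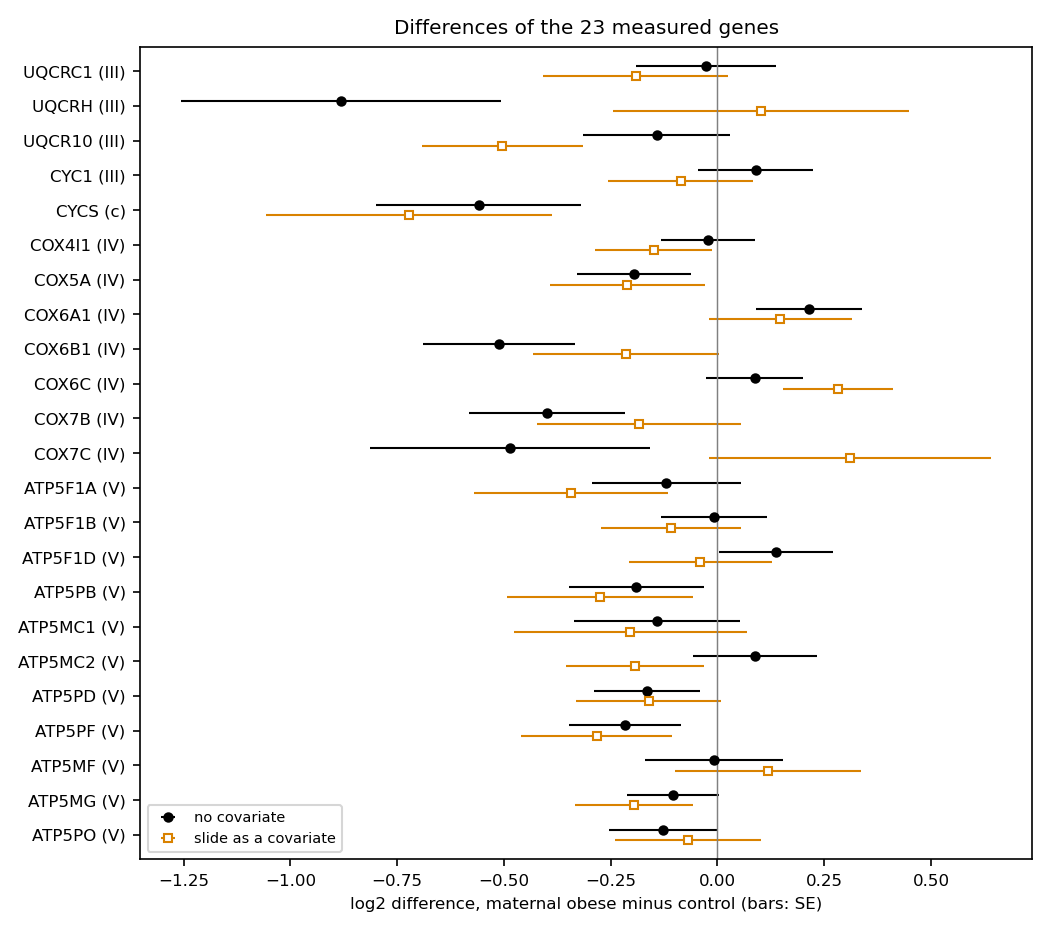
Log2 difference, maternal obese minus control, for each of the 23 measured genes, grouped by complex, with the fit over all arrays and the fit with slide as a covariate. Filled points have no covariate, open squares have the covariate, and bars are limma's SE. UQCRH lies at -0.88 without and 0.10 with the covariate, while CYCS lies at -0.56 and -0.72.

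In complex III the furthest from 0 was UQCRH, the acidic hinge protein that helps cytochrome c dock. UQCRH measured 8.48, 8.02, 9.05, 7.87 and 8.73 in MO1 to MO5. In controls the lowest value was 8.31, the median 9.40 and the highest 10.52. The 4 slide 1 controls lay above every maternal obese array, whereas CON5 (8.31) and CON6 (8.35) lay among them. The difference was -0.88 (SE 0.37, 95% interval -1.69 to -0.07; limma adjusted p = 0.367).

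UQCR10, a small subunit near the cytochrome c1 side of the complex, measured 7.55, 7.02, 7.49, 7.17 and 7.75 in maternal obese livers. Its control values had a lowest of 7.24, a median of 7.42 and a highest of 8.02, the highest pair being CON5 and CON6. The groups overlapped, and the difference was -0.14 (SE 0.17). With slide as a covariate it was -0.50 (SE 0.19; limma adjusted p = 0.592), the smallest p of the 23 in that fit. The other 2 detected UQCR10 probes gave 0.06 and -0.24 there, so the gene's probes disagreed in sign.

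CYC1, the haem protein that hands electrons to cytochrome c, measured 11.40, 11.003, 11.37, 11.58 and 11.35 in maternal obese livers, against a lowest of 11.06, a median of 11.21 and a highest of 11.63 in controls. CYC1 was the sole complex III gene above 0, at 0.09 (SE 0.13), and MO2 was the lowest array. The core protein UQCRC1 averaged 9.52 ± 0.33 in maternal obese livers and 9.55 ± 0.23 in controls (SD, n = 5 and 6), with a difference of -0.03 (95% interval -0.38 to 0.33).

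Cytochrome c, which also triggers apoptosis when it leaves mitochondria, was less spread among maternal obese livers (SD 0.20, n = 5) than among controls (SD 0.57, n = 6), a difference in spread that was not tested. CYCS measured 7.21, 6.92, 7.27, 7.35 and 6.92 in MO1 to MO5. The lowest control was 6.95, the median 7.67 and the highest 8.34. CON3, CON4 and CON5 stood well above every maternal obese liver, CON6 (7.37) just above, and CON1 and CON2 within their range. The difference was -0.56 (SE 0.24, 95% interval -1.08 to -0.04; limma adjusted p = 0.370). Adding slide as a covariate gave -0.72 (SE 0.34).

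In complex IV, 5 of 7 genes lay below 0. COX6B1, a subunit on the intermembrane side that contacts cytochrome c, had the smallest p of all 23 genes. It measured 8.57, 8.41, 8.83, 8.26 and 8.96 in maternal obese livers, against a lowest of 8.60, a median of 9.11 and a highest of 9.58 in controls. Only CON6 fell among the maternal obese values, below MO3 and MO5. The difference was -0.51 (SE 0.18, 95% interval -0.90 to -0.13; limma adjusted p = 0.337). Adding slide as a covariate gave -0.21.

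COX7B, a small transmembrane subunit needed for assembly of the enzyme, measured 10.20, 9.69, 10.72, 10.10 and 10.42 in maternal obese livers. The lowest control was 10.27, the median 10.58 and the highest 10.95. MO3 lay in the middle of the controls, and MO1, MO2 and MO4 lay below all of them. The difference was -0.40 (SE 0.18; limma adjusted p = 0.379), and -0.18 in the fit with the slide covariate.

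The complex IV genes with a higher mean in maternal obese livers were COX6A1 and COX6C. COX6A1, the form of subunit 6A found in most tissues, including liver, measured 10.91, 10.85, 10.85, 10.66 and 10.65 in MO1 to MO5, against a lowest of 10.16, a median of 10.64 and a highest of 10.77 in controls. MO1, MO2 and MO3 stood above every control, and the difference was 0.21 (SE 0.13; limma adjusted p = 0.450). COX6C, another transmembrane subunit, measured 11.50, 11.37, 11.41, 11.47 and 11.41 in maternal obese livers, against a lowest of 11.01, a median of 11.38 and a highest of 11.59 in controls. Its groups overlapped, with CON6 lowest, and the difference was 0.09 (SE 0.11). With slide as a covariate the COX6C difference was 0.28 (SE 0.13; limma adjusted p = 0.644).

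Of the other complex IV genes, COX7C, a transmembrane subunit, had the widest interval. COX7C measured 7.36, 6.36, 7.20, 6.51 and 7.06 in maternal obese livers, against a lowest of 6.41, a median of 7.43 and a highest of 8.50 in controls. Its difference of -0.49 (95% interval -1.19 to 0.22) became 0.31 with slide as a covariate. COX5A, a subunit on the matrix side, lay at -0.20 (SE 0.13), and COX4I1, through which ATP regulates the enzyme, at -0.02 (95% interval -0.26 to 0.22).

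In complex V, 9 of 11 genes lay below 0, with -0.22 the furthest. The genes with the smallest p below 0 were 2 peripheral stalk subunits, which hold the catalytic head still while the rotor turns. ATP5PF measured 12.01, 11.34, 11.35, 11.61 and 11.58 in maternal obese livers, against a lowest of 11.62, a median of 11.82 and a highest of 11.87 in controls. MO1 was the highest array of all and the other 4 maternal obese arrays lay below every control. The difference was -0.22 (SE 0.13; limma adjusted p = 0.466).

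ATP5PD measured 12.80, 12.31, 12.46, 12.82 and 12.38 in maternal obese livers, against a lowest of 12.63, a median of 12.67 and a highest of 12.92 in controls. MO2, MO3 and MO5 lay below every control and MO1 and MO4 above most of them, so the mean difference of -0.16 (SE 0.12) joins arrays that lay on either side. The other 2 stalk genes, ATP5PB at -0.19 (SE 0.16) and ATP5PO at -0.13 (SE 0.13), also lay below 0.

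Above 0 in complex V were ATP5F1D, a small rotor subunit of the head, and ATP5MC2, which encodes the proton-carrying ring subunit. ATP5F1D measured 9.47, 9.42, 9.49, 9.85 and 9.51 in maternal obese livers, against a lowest of 9.18, a median of 9.35 and a highest of 9.71 in controls. Its difference was 0.14 (SE 0.13), and -0.04 with slide as a covariate. ATP5MC2 measured 11.58, 11.39, 11.50, 11.13 and 11.45 in maternal obese livers, against a lowest of 10.94, a median of 11.36 and a highest of 11.61 in controls. Its difference was 0.09 (SE 0.15), and -0.19 with slide as a covariate.

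No difference was detected in the main subunits of the catalytic head. ATP5F1B, the catalytic subunit, averaged 12.57 ± 0.20 in maternal obese livers and 12.58 ± 0.16 in controls (SD, n = 5 and 6), a difference of -0.01 (95% interval -0.28 to 0.26). ATP5F1A, its non-catalytic partner in the head, averaged 12.02 ± 0.20 and 12.14 ± 0.37 in the same groups, a difference of -0.12 (95% interval -0.50 to 0.26). ATP5MC1, a second ring subunit gene, lay at -0.14, and the small membrane subunits ATP5MG and ATP5MF at -0.10 and -0.01.

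**Figure D2:**
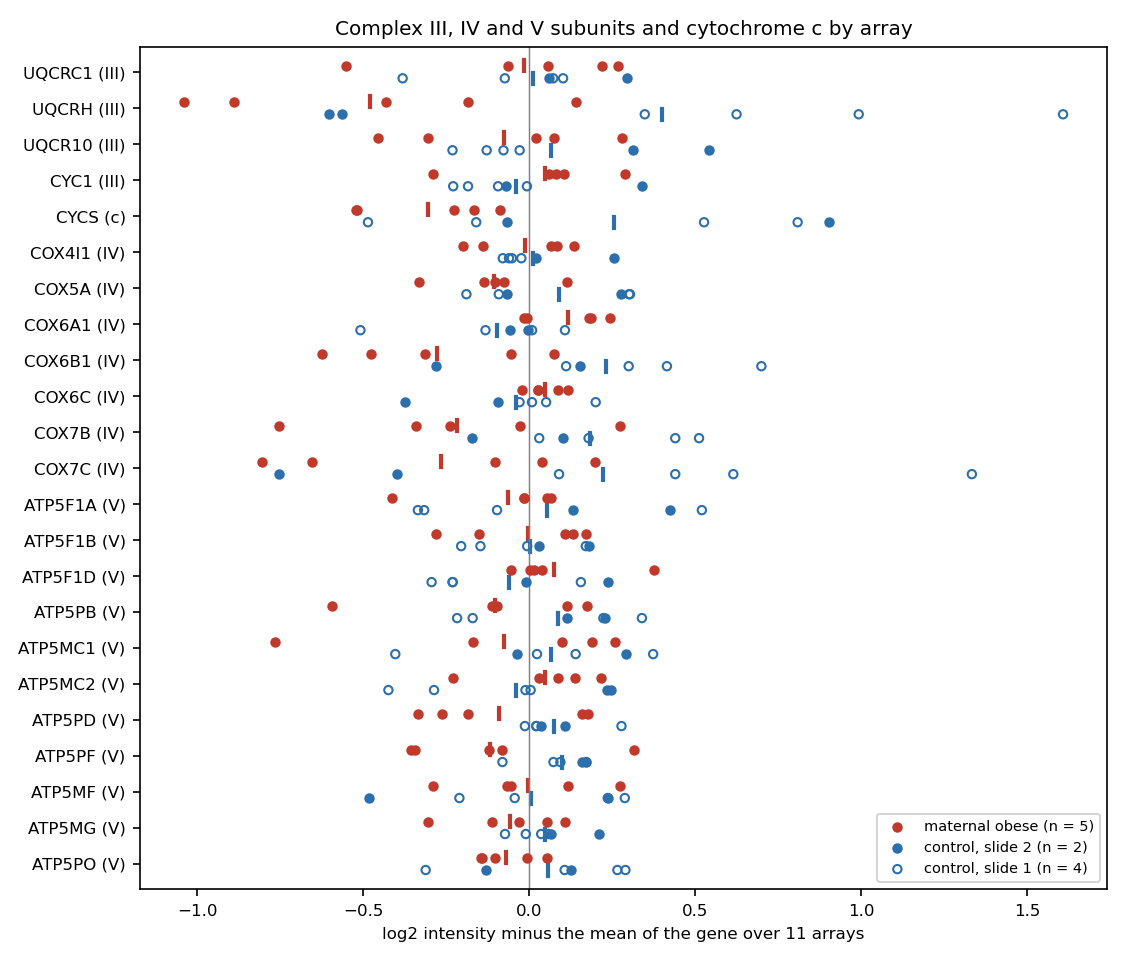
Log2 intensity minus the gene's mean over the 11 arrays, for each of the 23 measured genes (rows, by complex), with 1 point per array and a vertical tick at each condition's mean. Maternal obese arrays are drawn above controls in each row, and open points are slide 1 controls. The 4 slide 1 controls of UQCRH lie above all other arrays, and for ATP5PB and ATP5MC1 a single maternal obese array (MO2) lies far below the rest.

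The slides were compared with condition as a covariate, which sets CON5 and CON6 against CON1 to CON4. Of all features, 8.35% passed (849 of 10173), 2.92% higher and 5.43% lower on slide 2. Among the 23 genes 1 passed (4.35%), which is below that background. It was UQCRH, lower on slide 2 by a log2 difference of -1.48 (SE 0.36, limma adjusted p = 0.0282). Its control values averaged 8.33 on slide 2 and 9.81 on slide 1. All 7 slide 2 arrays lay below all 4 slide 1 arrays, as they did for 4.8% of features, with 8.18% wholly above. The call was lost with sex as a further covariate (-1.41, limma adjusted p = 0.124). It was also lost with median scaling in place of quantile normalization (-1.58, limma adjusted p = 0.0632). Nor did it hold with no detection filter, or without CON3, CON5 or CON6.

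UQCRHL is a human gene with a coding sequence nearly identical to that of UQCRH, and its probe may bind the same transcript, so both values are uncertain in that respect. The UQCRHL probe measured 9.63, 9.06, 9.88, 9.10 and 9.62 in maternal obese livers, with 9.15 in CON5 and 8.81 in CON6, and 10.23 to 11.40 on slide 1. It also passed between the slides, at -1.76 (SE 0.31, limma adjusted p = 0.00716). Between conditions it lay at -0.69 (SE 0.40), or 0.48 with slide as a covariate. Both probes thus gave a lower mean in maternal obese livers over all arrays and a higher one within slide 2.

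Other genes differed between slides without passing. COX7C lay at -1.20 (SE 0.34, limma adjusted p = 0.0520), with control means of 6.59 on slide 2 and 7.78 on slide 1. UQCR10 lay at 0.54 (SE 0.19, limma adjusted p = 0.101), in the opposite direction to UQCRH of the same complex. ATP5MC2 lay at 0.42 (SE 0.17) and COX6C at -0.29 (SE 0.13). The median over the 23 genes was 0.10, close to the 0.11 over all features, with -0.29 for complex IV and 0.13 for complex V.

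**Figure D3:**
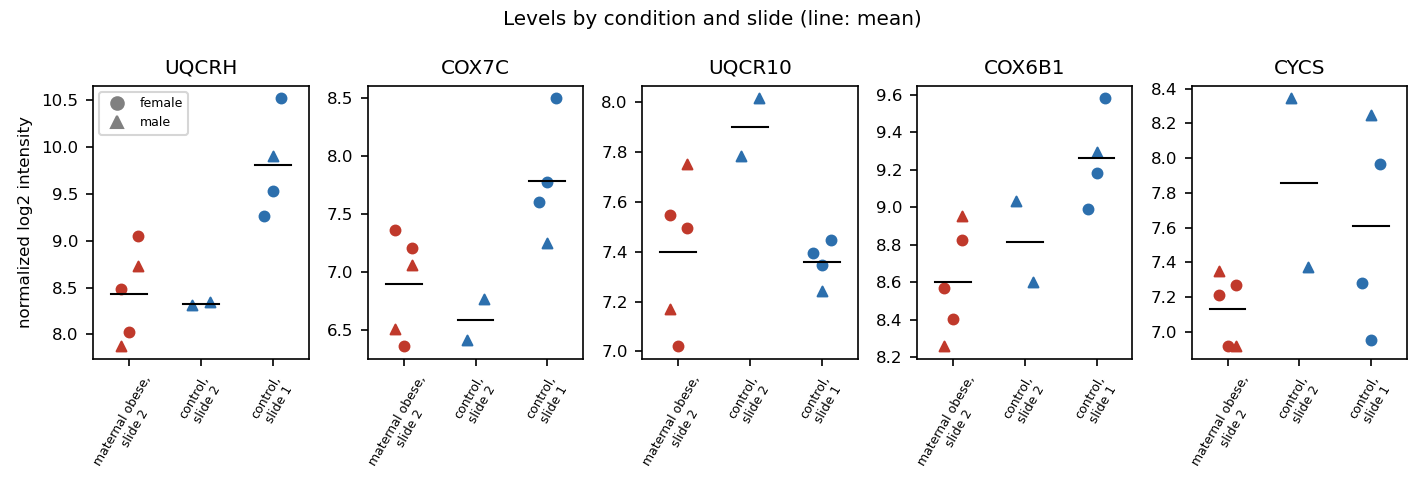
Normalized log2 intensity on each array for UQCRH, COX7C, UQCR10, COX6B1 and CYCS, in maternal obese livers (all on slide 2), slide 2 controls and slide 1 controls. Circles are females, triangles males and lines group means, and each gene has its own axis, which does not start at 0. CON5 and CON6, the slide 2 controls, lay among the maternal obese arrays for UQCRH (8.31 and 8.35), but CON5 was the highest of all arrays for CYCS (8.34).

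Within slide 2 alone, with 5 maternal obese and 2 control arrays, 0 of 23 genes passed, against a background of 0% of features, and the smallest adjusted p among the 23 was 0.535 (CYCS). At an unadjusted p under 0.05, UQCR10 and CYCS were lower (8.7% of the 23) and none higher, against a background of 3.35% lower and 4.95% higher. Of the 11 complex V genes 10 lay below 0, against a background of 49.8% of features, with ATP5PF at -0.28 and ATP5MG at -0.19. Both slide 2 controls were male, so sex also differed between these groups. With slide and sex both as covariates, the median was -0.11 and 16 of 23 genes lay below 0, against a background of 50.2%. For complex V 8 of 11 genes lay below 0 in that fit, with a median of -0.12.

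One maternal obese liver stood below the rest. MO2 was the lowest of the 11 arrays for 14 of the 23 genes and below the gene's mean for 21 of them. Averaged over the 23 genes, its deviation from the mean was -0.37, against -0.10 to 0.05 in the other maternal obese livers and -0.10 to 0.27 in controls. All 3 complexes shared it, with -0.55 for complex III, -0.33 for complex IV and -0.32 for complex V. It was not particular to them: the 20 measured subunits of complex I were also lowest in MO2, at -0.27, while all features averaged 0.01 there.

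MO2 also stood apart in markers of stellate, smooth muscle and matrix-forming cells. Of 12 such markers 10 were measured, all on all 11 arrays, and COL3A1 and LUM were not. Their mean deviation was 2.41 in MO2, against -0.57 to 0.15 in the other maternal obese livers and -0.80 to 0.52 in controls. Their part in the low values was not tested. The hepatocyte markers of MO2 lay at -0.35, against -0.03 to 0.19 in the other maternal obese livers and -0.30 to 0.47 in controls.

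Without MO2 the median difference was 0.03 for complex III, -0.14 for complex IV and -0.03 for complex V. COX7B was then at -0.27, UQCRC1 at 0.11 and ATP5MC1 at 0.03. With slide as a covariate and without MO2, 18 of 23 genes lay below 0 and the median was -0.06, against 49.5% of features below 0 and a median of 0.00 over them.

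**Figure D4:**
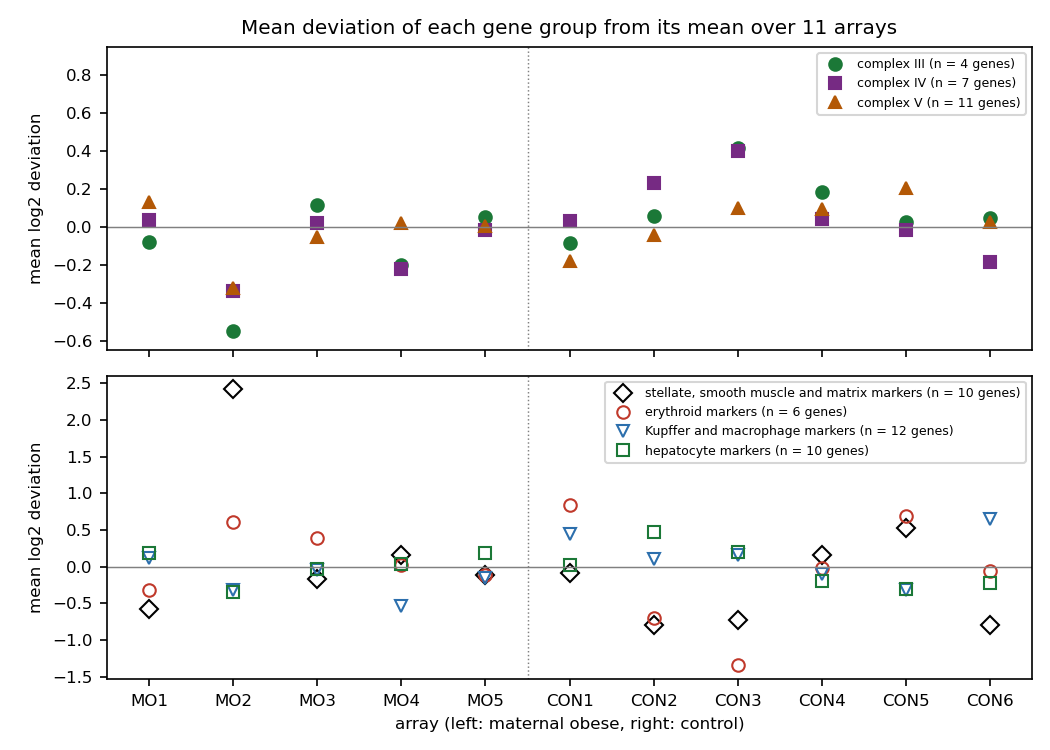
Mean deviation over the genes of a set, on the log2 scale, for each array, with maternal obese arrays left of controls. The upper panel shows complexes III, IV and V, and the lower panel 4 cell type marker lists. MO2 was lowest for each complex (-0.55, -0.33 and -0.32) and highest for the stellate, smooth muscle and matrix markers (2.41).

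Other marker lists varied between arrays too. All 12 Kupffer cell and macrophage markers were measured and lay below 0 in maternal obese livers, against a background of 41.3% of features. Their median was -0.32, and 0 passed. Of the 10 stellate, smooth muscle and matrix markers 0 lay below 0 (median 0.59), and of the 6 erythroid markers 0 (0.18). Endothelial markers lay below 0 for 1 of 6 (0.13) and hepatocyte markers for 5 of 10 (0.01). With slide as a covariate 11 of the 12 Kupffer cell and macrophage markers lay below 0 (median -0.36), against a background of 49.8%. The other counts were then 2, 3, 2 and 1, in the same order. The mean deviation of the Kupffer cell list ranged from -0.54 to 0.12 in maternal obese livers and from -0.32 to 0.64 in controls. The 6 of 14 erythroid markers that were measured ranged from -0.31 to 0.61 in maternal obese livers and from -1.34 to 0.84 in controls. For the 6 of 8 endothelial markers measured the ranges were -0.22 to 0.47 in maternal obese livers and -0.27 to 0.26 in controls. Only 1 of 6 cholangiocyte markers was measured, EPCAM, at -1.07 to 1.47 in maternal obese livers and -1.37 to 1.69 in controls. Between the slides, 2 of 10 hepatocyte markers and 1 of 12 Kupffer cell and macrophage markers passed. All were lower on slide 2, against a background of 5.43% lower. Of the 10 hepatocyte markers 8 lay below 0 there, with a median of -0.20. The part of these cells in the results was not tested.

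The contrast was then taken within each sex. In females 0 of 23 genes passed, against a background of 0% of features. At an unadjusted p under 0.05, COX7C (-0.98, SE 0.33), UQCRH (-1.25, SE 0.47) and COX6B1 (-0.65, SE 0.25) were lower, which is 13% of the 23 genes, against a background of 7.37% lower and 5.75% higher. COX7C and UQCRH were also the genes with the smallest p between the slides, and female controls and female maternal obese livers lay on different slides.

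In males 0 of 23 genes passed as well, again against a background of 0%. CYCS was the gene with the smallest p, at -0.85 (SE 0.34, limma adjusted p = 0.537). MO4 and MO5 measured 7.35 and 6.92 for CYCS, and the male controls 8.25, 8.34 and 7.37, so that MO4 and CON6 were close.

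The interaction of sex and maternal obesity called 0 of 23 genes and 0% of features. Its smallest p among the 23 belonged to ATP5MC2, at 0.59 (SE 0.25, limma adjusted p = 0.684), from a contrast of 0.36 in females and -0.23 in males. The female contrast sets slide 2 against slide 1, so slide and sex cannot be told apart in this value. ATP5MC2 lay at 0.42 (SE 0.17) between slides, and at -0.19 between conditions with slide as a covariate. Females were also set against males with condition as a covariate, where 0 of 23 genes passed against a background of 0.0491% of features. ATP5F1A was lower in females by a log2 difference of -0.40 (SE 0.14, limma adjusted p = 0.364), and 10 of the 11 complex V genes lay below 0 there, against a background of 58.4% of features. In complex IV the order was the other way, with 1 of 7 genes below 0. The female controls were all on slide 1, whereas CON5 and CON6, on slide 2, were male. Sex and slide were thus partly mixed in this contrast, and their parts were not told apart.

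How far the genes varied together was described by Pearson's r across the 11 arrays after the mean of each slide was taken out. The median over the 253 pairs was 0.39, against 0.01 over all pairs of features. It was 0.39 for the 82 pairs within a complex and 0.38 for the 171 pairs between complexes. Without MO2 the median over the 253 pairs was 0.18. The pairs share arrays, labelling and normalization, and r over so few arrays is a description.

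The highest pairs were CYCS with ATP5F1A (r = 0.83), COX4I1 with ATP5MG (r = 0.81) and COX6B1 with COX7B (r = 0.80), and they stood at 0.82, 0.79 and 0.84 without MO2. The lowest pairs all held COX6A1: with ATP5F1A (r = -0.78), with ATP5F1B (r = -0.72) and with CYCS (r = -0.60). Without MO2 these were -0.80, -0.77 and -0.57. Sex was not taken out of these r values. Female minus male, COX6A1 lay at 0.20, ATP5F1A at -0.40, ATP5F1B at -0.24 and CYCS at -0.33. CON4, a male, was the lowest array for COX6A1 (10.16) and the highest for ATP5F1A (12.61). The part of sex or of CON4 in these pairs was not tested. Of the 253 pairs 43 had r below 0, against 25166616 of 51739878 pairs of features. Of those 43 pairs, 31 held COX6A1 or COX6C, both transmembrane subunits of complex IV. These were the 2 genes whose median r with the others was negative, at -0.15 for COX6A1 and -0.12 for COX6C.

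**Figure D5:**
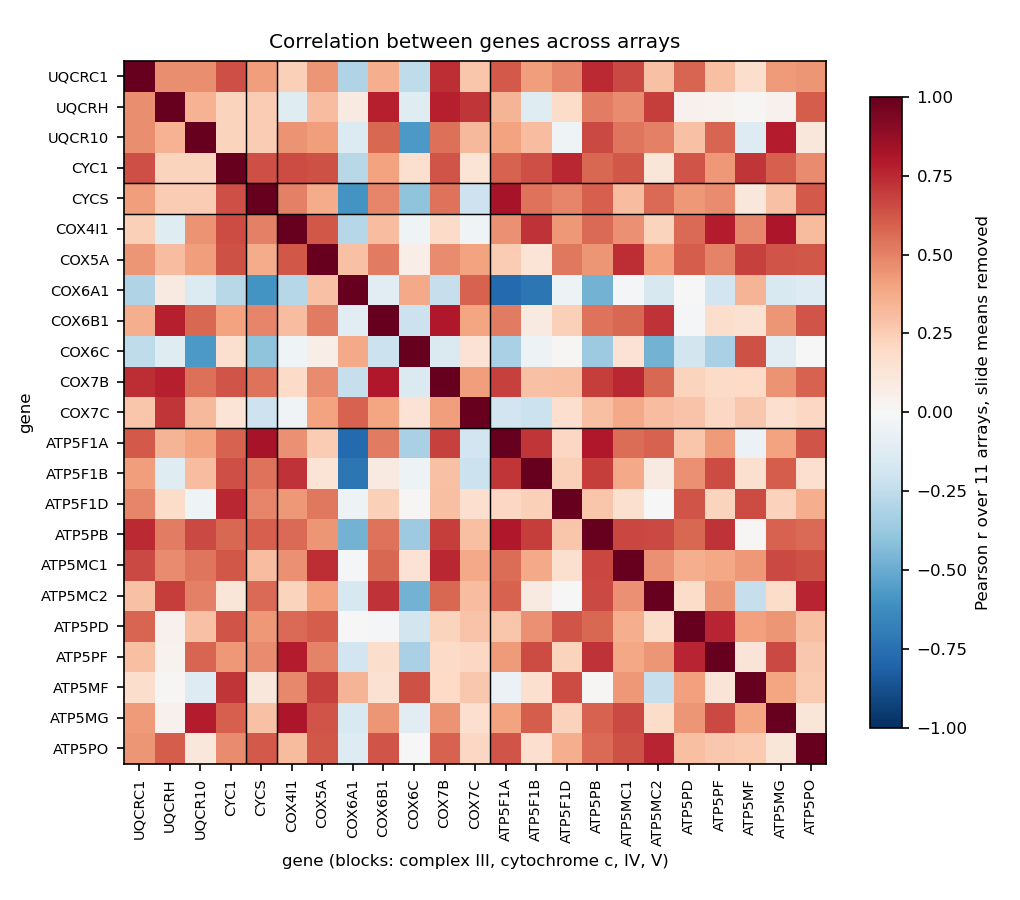
Pearson's r between the 23 measured genes over the 11 arrays, with the mean of each slide taken out, in the order of the complexes. Many squares of COX6A1 and COX6C lie near or below 0, and the pair CYCS and ATP5F1A stands at 0.83.

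Other genes of respiration were read from lists of related function, and between conditions 0 passed in each. Of 24 assembly factors of complex IV 16 were measured, and 3 of the 16 lay below 0, with a median of 0.08. With slide as a covariate 10 of the 16 lay below 0, against a background of 49.8% of features, and the median was -0.03. COX19, a copper-handling factor, lay at 0.40 (SE 0.12), the translation-linked factor COA3 at 0.44 (SE 0.18) and the copper chaperone COX17 at -1.06 (SE 0.50). In the fit with the slide covariate they lay at 0.41, -1.7e-04 and 0.44. COX17 measured 6.75, 5.61, 6.55, 5.26 and 5.90 in maternal obese livers, with 5.61 in CON5 and 5.54 in CON6, and 7.43 to 8.12 on slide 1. It was lower on slide 2 by a log2 difference of -2.25 (SE 0.36, limma adjusted p = 0.00535). The factors COA3 (0.66) and COA4 (0.82) were higher on slide 2, at limma adjusted p = 0.0371 and 0.0235.

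Among complex V factors 5 of 9 were measured, with a median of 0.16 and 2 below 0. The head assembly factor ATPAF1 lay at 0.29 (SE 0.13), ATP5IF1, the inhibitor that stops the enzyme from hydrolysing ATP, at -0.21, and FMC1 at 0.18. With slide as a covariate these were 0.06, -0.12 and 0.35, and the median of the 5 was 0.06, again with 2 below 0. TMEM70, which helps assemble the rotor ring, was lower on slide 2 by a log2 difference of -1.57 (limma adjusted p = 0.00865). For complex III, 3 of 6 assembly factors were measured, with a median of 0.00, or -0.04 with slide as a covariate. Of 8 further isoforms, only UQCRHL and COX7A1 (-0.09) were measured, and of 6 mitochondrially encoded subunits 0.

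Complex I, which feeds electrons from NADH into the chain, had 20 of 37 listed subunits measured, with 8 below 0 and a median of 0.05. With slide as a covariate 13 of the 20 lay below 0 and the median was -0.01. Its genes with the smallest p were NDUFA3 at -0.86 (SE 0.25), NDUFB5 at -0.98 (SE 0.41) and NDUFB7 at -0.29. NDUFA3, NDUFB5 and NDUFA9 passed between the slides, all lower on slide 2 (-0.97, -1.86 and -0.93). For complex II, 3 of 4 subunits were measured, with 2 below 0 and a median of -0.12, or 1 below 0 and 0.08 with slide as a covariate. Of 12 regulators of mitochondrial gene expression 9 were measured, with 3 below 0 and a median of 0.13. With slide as a covariate 6 of the 9 lay below 0 and the median was -0.06. The transcription factor YY1 lay at 0.36 (SE 0.14), the mitochondrial RNA polymerase POLRMT at 0.17 and TFB1M at 0.18. The coactivator PPRC1 was higher on slide 2 (0.92, limma adjusted p = 0.0464).

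For 7 of the 23 genes a further probe was detected on at least 5 arrays. The second ATP5MF probe followed the first (r = 0.95 over 11 arrays) and gave -0.06 between conditions. ATP5PF gave -0.24 and -0.16 on its other probes, against -0.22 on the first. With slide as a covariate these were -0.15 and 0.0072, against -0.28. ATP5PD gave -0.56 (SE 0.32) on its second probe, which turned to 0.36 with slide as a covariate, whereas the first probe gave -0.16 in both fits. Probes of UQCR10 (0.07 and -0.16) and ATP5MC1 (0.13) included some with the opposite sign to the first, and those of ATP5F1A (-0.08) and ATP5MC2 (0.17) had its sign. With slide as a covariate the second probes of ATP5F1A (0.11, against -0.34 on the first) and ATP5MC2 (0.04, against -0.19) had the opposite sign.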

How the data were processed

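The deposited table holds, for 48803 probes on each array, a linear intensity with its detection p-value. The deposited series matrix holds log2 values, which equalled the log2 of those intensities within 5.00e-09. RNA was extracted with TRI Reagent and amplified with an Illumina kit, per the labels' protocols. GenomeStudio and Partek are named, per the submitters' processing notes, with no version given in the sources used here. Every column matched a sample.

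With limma 3.58.1 in R 4.3.3, neqc (offset 16) background-corrected, quantile-normalized and log2-transformed the intensities. Filtering for detection (p under 0.05, 5 arrays or more) kept 11475 probes. One probe per symbol left 10173 features, 8043 with a symbol. Symbols come from the platform annotation (1 symbol for 28098 probes). Tests used lmFit and eBayes, two-sided, tested on simulated data. SD is the spread between arrays, and SE comes from limma's moderated variance.

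The genes and lists were chosen with earlier results of these data known. Values per array are given for genes past the threshold (up to 6 per comparison), for the 2 genes per complex and direction with the smallest p between conditions, and for cytochrome c. COX7C was added after its values were seen. Up to 3 genes per other list are those with the smallest p between conditions. Genes of the respiration lists that passed between the slides were named after their values were seen, and cell type markers that passed there were only counted.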

Additional observations from a re-analysis of the deposited data

Results flagged for a closer look

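Of 54 groups of values examined for an array far from the rest (23 genes and 4 further sets of values, in each condition), 3 held one, and chance gives about 1 in 20. ATP5F1A was 11.67 in MO2, where the nearest other maternal obese liver was at 12.07 and the farthest at 12.15. ATP5F1D was 9.85 in MO4, with the nearest other maternal obese liver at 9.51 and the farthest at 9.42. COX4I1 was 13.29 in CON5, against a nearest control of 13.06 and a farthest of 12.96.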

How the results depend on the processing

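Under median scaling the median difference of the 23 genes was -0.34 and that of all features -0.13, and 5 genes turned below 0: CYC1 (-0.13), COX6A1 (-0.033), COX6C (-0.16), ATP5F1D (-0.10) and ATP5MC2 (-0.13). Slide as a covariate turned UQCRH (0.10), CYC1 (-0.086), COX7C (0.31), ATP5F1D (-0.040), ATP5MC2 (-0.19) and ATP5MF (0.12). When MO2 was also left out they stood at 0.20, -0.0022, 0.45, -0.0077, -0.19 and 0.19. Slide as a random block turned ATP5MC2 (-0.047) and ATP5MF (0.053). Slide and sex together turned UQCRH (0.052), COX6A1 (-0.048), COX7C (0.078), ATP5F1B (0.046), ATP5MC2 (-0.21) and ATP5MF (0.10), and sex alone UQCRC1 (7.4e-04) and ATP5F1B (0.016). Array weights turned UQCRC1 (0.092), UQCR10 (0.0044), COX4I1 (0.015), ATP5F1A (0.036), ATP5F1B (0.036) and ATP5MC1 (0.019). In males of slide 2, COX7C (0.20), ATP5F1B (0.034), ATP5MC2 (-0.31) and ATP5MF (0.23) turned, and with another probe UQCR10 (0.070) and ATP5MC1 (0.13). CYCS, COX5A, COX6B1, COX7B, ATP5PB, ATP5PD, ATP5PF, ATP5MG and ATP5PO kept their direction under each of these alternatives taken one at a time. With slide as a covariate and another probe together, ATP5PD (0.36) and ATP5PF (0.0072) lay above 0. The comparison of males of slide 2, the fit with slide and without MO2 and the other probes were chosen after seeing the data.

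Leaving out each array in turn moved the median difference between -0.18 and -0.04 and the number of genes below 0 between 13 and 18. It turned UQCRC1 (-0.11 to 0.11), COX4I1 (-0.058 to 0.027), ATP5F1B (-0.051 to 0.061), ATP5MC1 (-0.24 to 0.030) and ATP5MF (-0.11 to 0.063). With array weights 12 of 23 lay below 0.

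Between conditions limma called 1 feature with slide as a covariate, 1 with sex, 7 with array weights, 1 with slide and without MO2, and 0 to 1 with 1 array left out. Within slide 2 the range was 0 to 10. Between slides 116 features passed with sex as a covariate, and 44 (without CON6) to 945 with 1 array left out. Of the 23 genes 0 passed there with median scaling, with no detection filter or with sex, and 0 to 2 with 1 array left out. UQCRH ranged from -1.66 to -1.24 (limma adjusted p 0.0248 to 0.187). In females 5 features passed with no background correction, 2 with detection on all arrays, 1 with no filter, and 0 to 294 (without CON4) with 1 array left out. In males that range was 0 to 4, and for the interaction 0 to 14. Female against male gave 3 with no background correction, 3 with median scaling, 0 with detection on all arrays, 2 with no filter, and 3 to 5 with 1 array left out. The causes of these changes were not tested.

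No paired analysis was possible because replicate numbers only name arrays, in accession order. The number of arrays limits precision, and the slide contrast rests on 2 slide 2 controls.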
